A study of Mus musculus with 2 samples.

Results

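The miR-132 and miR-212, miR-129, miR-138 and miR-218 families are encoded in the mouse by 8 hairpin genes, which were taken by name from the 1973 miRNA genes measured: Mir132, Mir212, Mir129-1, Mir129-2, Mir138-1, Mir138-2, Mir218-1 and Mir218-2. All 8 were present in the E14.5 forebrain at 10 or more reads in both libraries, a minimum that 20.2% of all genes reached. They spanned a 54.5-fold range, with Mir138-1 at the top (557 ± 55.1 CPM; SD, n = 2) and Mir218-1 at the bottom (10.2 ± 0.738 CPM). Together they made up 0.161% of all miRNA counts for replicate 2 and 0.156% for replicate 1. CPM is the number of counts on a gene, in its own direction, per 1000000 counts summed over the miRNA genes of that library.

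The tissue was the forebrain of B6NCrl embryos, an inbred C57BL/6N mouse line, at embryonic day 14.5, sequenced as small RNA (labelled size range under 30) in 2 libraries numbered as biological replicates. There is 1 group, with no other tissue, age, genotype or treatment to set against it. Per the labels each library came from 1 forebrain and the collection days differed, yet both carry the same donor identifier and a pooled sex. Whether the spread between them is wholly biological is therefore unknown.

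A miRNA gene is transcribed as part of a longer primary RNA, cut out as a hairpin and cut again to a duplex of a 5p and a 3p arm, of which mostly one is kept by Argonaute. The kept arm pairs with mRNAs through its seed, bases 2 to 8, and lowers their translation and stability. The 4 families are known from neurons. miR-132 and miR-212 come from one primary transcript that the activity-dependent factor CREB switches on, and miR-132 promotes dendrite growth. In rodent neurons miR-138 restrains the growth of dendritic spines and miR-129-5p represses the potassium channel Kv1.1. miR-218 is abundant in motor neurons of the spinal cord and brainstem, and its genes lie within Slit2 and Slit3, which encode axon guidance ligands.

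The mature arms are given first, because they decide which reads can be assigned to a single gene. RefSeq (GRCm38.p6) lists 12 distinct arms for the 8 genes, and the capitals mark the seed. The 3p arms of miR-132 and miR-212 share the seed AACAGUC, which no other RefSeq mature miRNA of the mouse holds.
miR-132-3p: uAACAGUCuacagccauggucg
miR-212-3p: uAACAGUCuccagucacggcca
miR-132-5p: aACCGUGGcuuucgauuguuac
miR-212-5p: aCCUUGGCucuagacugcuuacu
miR-129-5p: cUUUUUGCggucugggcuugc
miR-129-2-3p: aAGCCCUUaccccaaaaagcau
miR-138-5p: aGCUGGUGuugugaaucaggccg
miR-138-1-3p: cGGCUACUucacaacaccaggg
miR-138-2-3p: gCUAUUUCacgacaccagggu
miR-218-5p: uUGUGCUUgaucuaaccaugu
miR-218-1-3p: aAACAUGGuuccgucaagcacc
miR-218-2-3p: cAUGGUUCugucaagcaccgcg

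Of these arms, 9 occur in a single annotated hairpin and 3 occur identically in a pair of hairpins: miR-129-5p, miR-138-5p and miR-218-5p. The search covered the 2201 miRNA hairpins of GENCODE M21. A read of exactly one of those 3 sequences matches both genes of its family, and the deposited tables count reads that match several places in a total of their own, under no gene. That total held 8701185 reads in replicate 2 and 8057367 in replicate 1, and how many of them belong to these miRNAs is not in the tables. The counts of Mir129-1, Mir129-2, Mir138-1, Mir138-2, Mir218-1 and Mir218-2 are thus counts of the reads that tell the 2 loci apart, and do not give the level of miR-129-5p, miR-138-5p or miR-218-5p. The arms of Mir132 and Mir212 occur in no other annotated hairpin. No genome sequence was searched, so whether some of their reads match elsewhere was not tested. Of the 8 genes, 6 have an arm that another locus also encodes, beside 9.50% of the 916 genes with a RefSeq mature sequence.

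The hairpins show how much a read must reach beyond the shared arm. Capitals mark every stretch of 15 nt or more that both hairpins of a family have in common, printed for the 3 families with such a stretch.
Mir129-1: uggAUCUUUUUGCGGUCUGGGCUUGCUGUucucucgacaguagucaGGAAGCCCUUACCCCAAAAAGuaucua
Mir129-2: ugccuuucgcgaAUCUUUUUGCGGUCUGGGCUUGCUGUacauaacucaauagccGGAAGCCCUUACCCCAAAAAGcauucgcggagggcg
Mir138-1: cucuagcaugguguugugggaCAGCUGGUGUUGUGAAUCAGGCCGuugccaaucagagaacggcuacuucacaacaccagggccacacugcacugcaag
Mir138-2: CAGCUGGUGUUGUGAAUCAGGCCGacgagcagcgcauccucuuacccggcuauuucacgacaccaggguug
Mir218-1: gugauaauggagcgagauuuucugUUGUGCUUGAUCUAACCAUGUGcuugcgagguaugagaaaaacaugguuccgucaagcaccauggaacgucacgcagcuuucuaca
Mir218-2: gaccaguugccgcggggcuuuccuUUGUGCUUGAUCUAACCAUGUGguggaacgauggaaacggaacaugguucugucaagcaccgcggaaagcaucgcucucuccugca

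Around miR-129-5p the loci share 26 nt, of which 2 lie before the arm and 3 after it. A read tells them apart if it runs 4 nt past the 3′ end of the arm or starts before the shared stretch. The shared stretch is 24 nt at miR-138-5p, where 1 extra base at the 3′ end is enough. It is 22 nt at miR-218-5p, where 2 extra bases at the 3′ end or any extra base at the 5′ end are enough. Reads of the 3p arms of the Mir138 and Mir218 genes need no extra base, since each of these arms occurs in a single annotated hairpin. Gene counts do not give the arm that their reads came from. The Mir129 hairpins also share a stretch of 21 nt on the 3p side, so that miR-129-2-3p differs from the Mir129-1 hairpin only near its 3′ end. Mir132 and Mir212 have no common stretch longer than 10 nt.

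**Figure D1:**
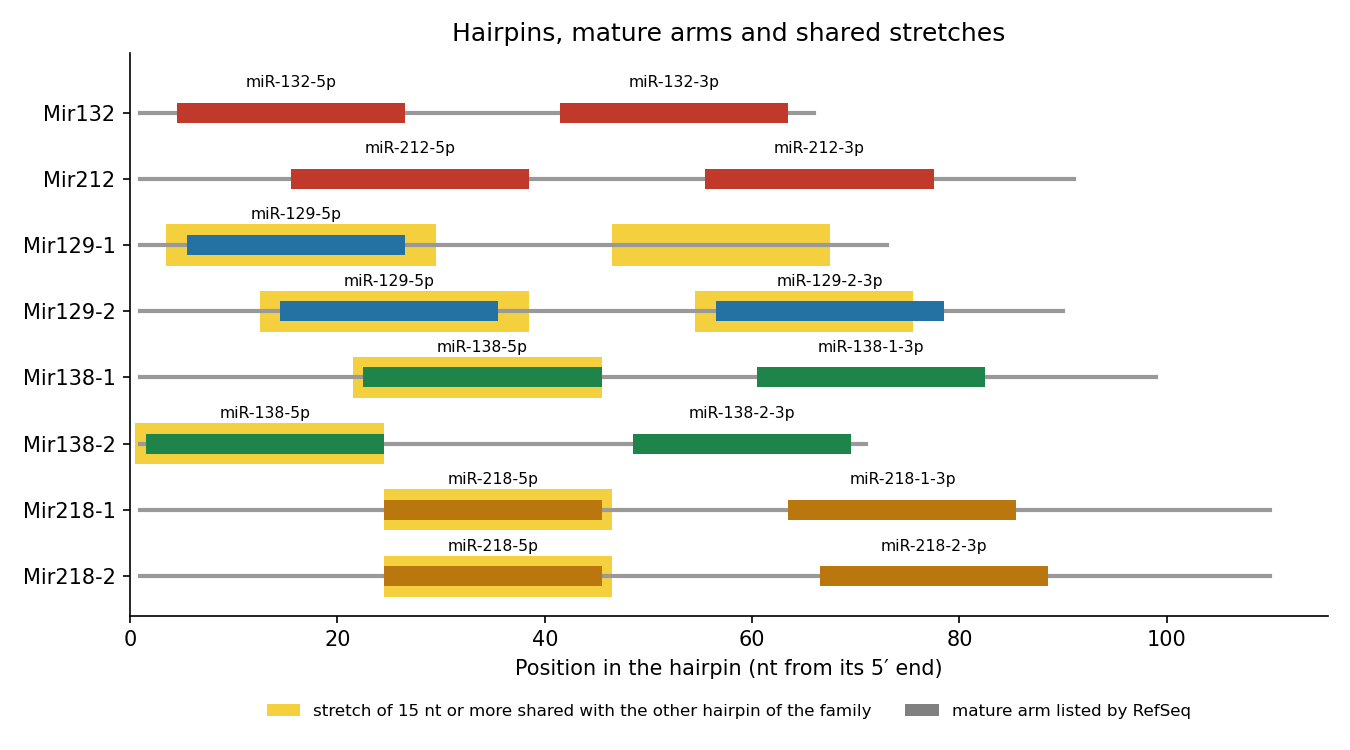
Each grey line is a hairpin drawn to scale, with position in nt from its 5′ end on the x axis; coloured bars are the mature arms listed by RefSeq and yellow blocks are stretches of 15 nt or more that the other hairpin of the family also holds. The yellow blocks cover the 5p arms of the Mir129, Mir138 and Mir218 pairs, cover most of the 3p side in the Mir129 pair, and are absent from Mir132 and Mir212.

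On mm10, Mir132 (ENSMUSG00000065537.1) lies at chr11:75173682-75173747 and Mir212 (ENSMUSG00000065590.1) at chr11:75173388-75173478, both on the plus strand, 203 nt apart, inside an intron of 1700016P03Rik, a processed transcript with no protein. Mir129-1 (ENSMUSG00000065469.1) lies at chr6:29022619-29022691 on the plus strand and overlaps an exon of the lincRNA Gm3294. Mir129-2 (ENSMUSG00000065511.1) lies at chr2:94241364-94241453 on the minus strand in an intron of Mir670hg, opposite Mir129b, a gene that is not analysed here. Mir138-1 (ENSMUSG00000065414.1) lies at chr9:122682876-122682974 and overlaps an exon of the transcribed pseudogene Gm47135, and Mir138-2 (ENSMUSG00000065512.2) lies at chr8:94324311-94324381 and overlaps an exon of the lincRNA C78859, both on the plus strand. Mir218-1 (ENSMUSG00000065603.1) lies at chr5:48223942-48224051 in an intron of Slit2, and Mir218-2 (ENSMUSG00000065583.1) at chr11:35616816-35616925 in an intron of Slit3, both on the plus strand and in the direction of the host. Positions are from GENCODE M21, in which Mir132 and Mir138-2 have a later version number than in the files.

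The libraries held 7946585 counts on miRNA genes in replicate 2 and 7080317 in replicate 1, so that 1 count was worth 0.126 and 0.141 CPM. Of the neural marker miRNAs, 8 of the 9 analysed were detected, with summed levels of 14154 and 16015 CPM in replicates 2 and 1, and none was at 0. The 3 loci of the neuronal miR-124 had 3 to 18 counts each, but their hairpins share a stretch of 31 nt, so these counts do not give the level of miR-124. Markers of other cells were present too: endothelial Mir126a stood at 22365 CPM in replicate 2 against 22103 in replicate 1, and the choroid plexus or ciliated markers summed to 6631 and 8028 CPM in replicates 2 and 1. In bulk tissue, fewer cells of a type and less RNA per cell cannot be told apart.

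Mir132, which gives rise to the growth-promoting miR-132, had 3936 counts in replicate 2 and 2461 in replicate 1. That is 495 CPM (95% exact Poisson interval 480 to 511) and 348 CPM (334 to 362), with a mean of 421 ± 104 CPM (SD, n = 2). Replicate 2 was the higher library, and the counting intervals of the libraries did not overlap. Mir212, the neighbour that shares its seed and its primary transcript, had 166 and 135 counts in replicates 2 and 1, or 20.9 and 19.1 CPM (20.0 ± 1.29). Its counting intervals overlapped (17.8 to 24.3 and 16.0 to 22.6 CPM). Mir132 therefore had 23.7 times the counts of Mir212 in replicate 2 and 18.2 times in replicate 1. All intervals cover counting error only.

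Mir138-1 had 4116 counts in replicate 2 and 4219 in replicate 1, or 518 CPM (502 to 534) and 596 CPM (578 to 614). Here replicate 1 was the higher library, and again the counting intervals did not overlap. Mir138-2 had 1948 and 1811 counts, or 245 and 256 CPM (250.5 ± 7.53; SD, n = 2), with overlapping intervals. Reads that identify a locus thus favoured Mir138-1 over Mir138-2 by 2.11 times in replicate 2 and 2.33 times in replicate 1.

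Mir129-2 had 1875 counts in replicate 2 and 1687 in replicate 1, or 236 and 238 CPM (237 ± 1.64). Mir129-1 had 518 and 454 counts, or 65.2 and 64.1 CPM (64.7 ± 0.752). Both genes were nearly level between the libraries, with coefficients of variation of 0.691% and 1.16%. On the opposite strand of Mir129-2, where Mir129b lies, no read was counted in replicate 2 and 1 in replicate 1, below the limit of 3 counts that a count of 0 allows.

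The Slit-hosted genes were the lowest of the 6 genes with an arm that another locus also encodes, and Mir212 lay between them. Mir218-2, in Slit3, had 188 counts in replicate 2 and 201 in replicate 1, or 23.7 and 28.4 CPM (26.0 ± 3.35). Mir218-1, in Slit2, had 77 and 76 counts, or 9.69 and 10.7 CPM, and was the only one of the 8 with fewer than 100 counts in a library.

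**Figure D2:**
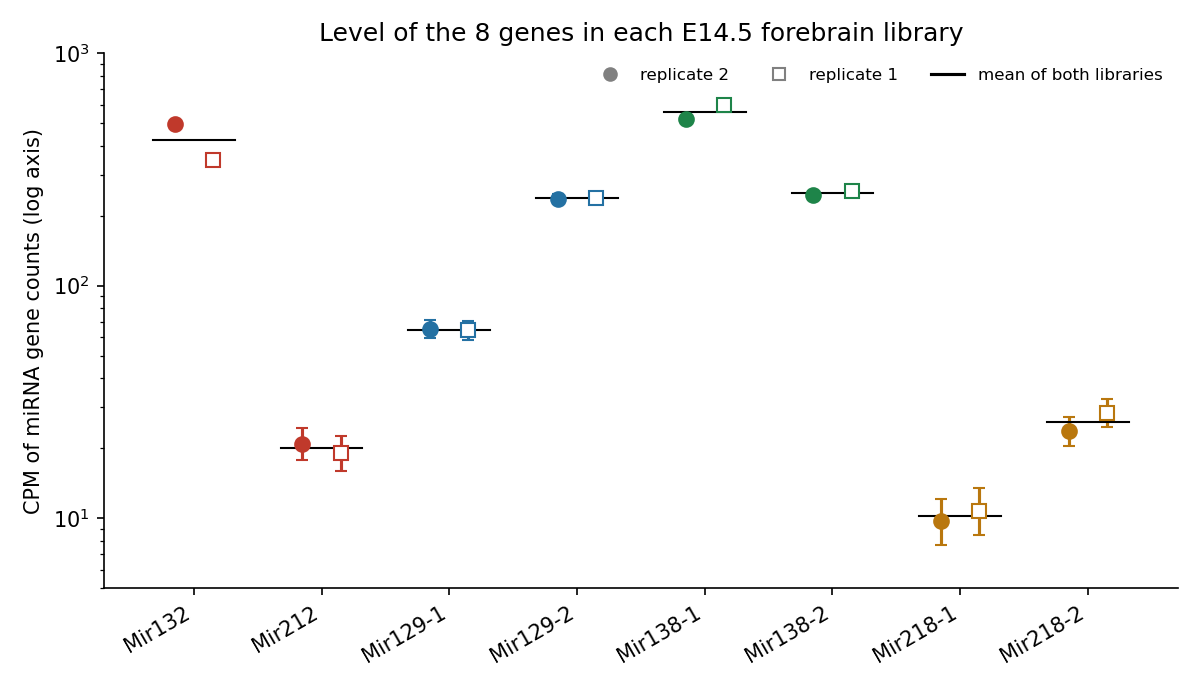
Level of each gene in CPM of miRNA gene counts (log axis) in replicate 2 (filled circles) and replicate 1 (open squares), with exact Poisson 95% intervals as bars where larger than the symbol and the mean of both libraries as a black line. The libraries stand apart for Mir132 (495 and 348 CPM) and Mir138-1 (518 and 596 CPM), and their intervals overlap for the other 6.

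By family, miR-138 made up 0.0763% of counts for replicate 2 and 0.0852% for replicate 1, miR-132 with miR-212 held 0.0516% and 0.0367%, miR-129 held 0.0301% and 0.0302%, and miR-218 held 0.00333% and 0.00391%. Since reads common to both loci are missing, this order ranks assigned counts and not the mature miRNAs. In order of mean level the genes ran Mir138-1, Mir132, Mir138-2, Mir129-2, Mir129-1, Mir218-2, Mir212 and Mir218-1, and each library alone gave the same order. Of the 7 neighbouring steps, 6 were larger than the summed SDs of the genes compared. The exception was Mir138-1 over Mir132, where the means differed by 135 CPM and the SDs summed to 160 CPM. An SD of 2 libraries does not settle a step, and counting intervals gave another split. Those of Mir138-2 and Mir129-2 overlapped in replicate 2 (234 to 256 and 225 to 247 CPM) and in replicate 1 (244 to 268 and 227 to 250 CPM). In replicate 2 only, they also overlapped for Mir218-2 and Mir212 (20.4 to 27.3 and 17.8 to 24.3 CPM) and for Mir138-1 and Mir132 (502 to 534 and 480 to 511 CPM). Each miRNA read covers about a whole mature arm, so counts were not divided by gene length.

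Among the 399 detected genes, 4 of the 8 stood above the median of 81.0 CPM and 4 below it, and the median of the 8 was 151 CPM. Mir138-1 ranked 103 and Mir132 ranked 114 of all genes, Mir138-2 and Mir129-2 ranked 137 and 142, and Mir218-1 ranked 291. The genes nearest in level over both libraries, by distance on the log2(CPM + 1) scale, were Mir9-3 for Mir138-1 (556 and 634 CPM in replicates 2 and 1), Mir186 for Mir132 (459 and 353 CPM), Mir1251 for Mir129-2 (237 and 245 CPM) and Mir34b for Mir218-2 (23.4 and 28.5 CPM). With 2 libraries this shows a like level only.

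**Figure D3:**
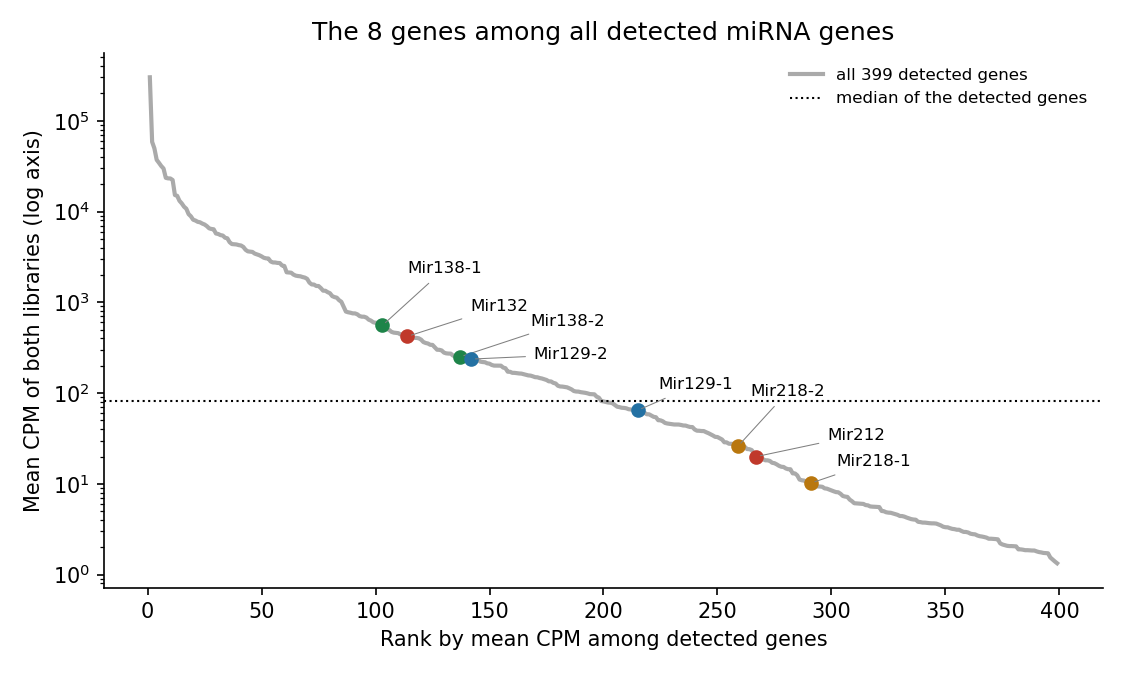
Mean CPM of both libraries (log axis) against rank for the 399 detected miRNA genes (grey line), with the 8 genes as coloured points and the median of 81.0 CPM as a dotted line. Mir138-1, Mir132, Mir138-2 and Mir129-2 lie above the median and Mir129-1, Mir218-2, Mir212 and Mir218-1 below it.

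The share of each locus in the counts of its family was compared between the libraries. Mir132 took 96.0% of the Mir132 and Mir212 counts in replicate 2 (exact Clopper-Pearson 95% interval 95.3% to 96.5%) and 94.8% in replicate 1 (93.9% to 95.6%). Mir129-1 took 21.6% (20.0% to 23.4%) and 21.2% (19.5% to 23.0%) of the Mir129 counts in replicates 2 and 1. Mir138-1 took 67.9% (66.7% to 69.1%) and 70.0% (68.8% to 71.1%) of the Mir138 counts, and Mir218-1 took 29.1% (23.7% to 34.9%) and 27.4% (22.3% to 33.1%) of the Mir218 counts. In a test added after the values were seen, no share passed the threshold of 0.05 (Fisher's exact test, two-sided, adjusted over the 4 families). The smallest adjusted p-values were 0.0532 for Mir138-1, whose share was 2.09 points lower in replicate 2 (unadjusted p = 0.0133, Fisher's exact test), and 0.0584 for Mir132, whose share was 1.15 points higher (unadjusted p = 0.0292, Fisher's exact test). For both the unadjusted p was under 0.05, so equal shares are not shown. For Mir129-1 and Mir218-1 the adjusted p was 0.744 in Fisher's exact test.

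The fold between the loci was set beside that of other pairs of loci with an identical arm. These are folds of assigned counts. How far a read must reach to be assigned differs between pairs, so a fold does not give the output of each locus. In the table, 33 pairs of loci share an arm that RefSeq lists at exactly 2 loci, and in 18 of them both loci were detected. Over these 18 pairs, which include the 3 described here and count Mirlet7c-2 in a pair with each of 2 genes, the higher locus exceeded the lower by a median of 3.53-fold, from 1.17 to 95.8. The Mir129 pair stood at 3.67-fold, with 8 pairs more uneven, the Mir218 pair at 2.55-fold, with 10, and the Mir138 pair at 2.22-fold, with 11. All 3 were thus near the middle of the order of folds. Their summed levels differed widely. Of the 18 pairs, 7 had a higher sum than Mir138, 10 a higher sum than Mir129 and 16 a higher sum than Mir218.

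**Figure D4:**
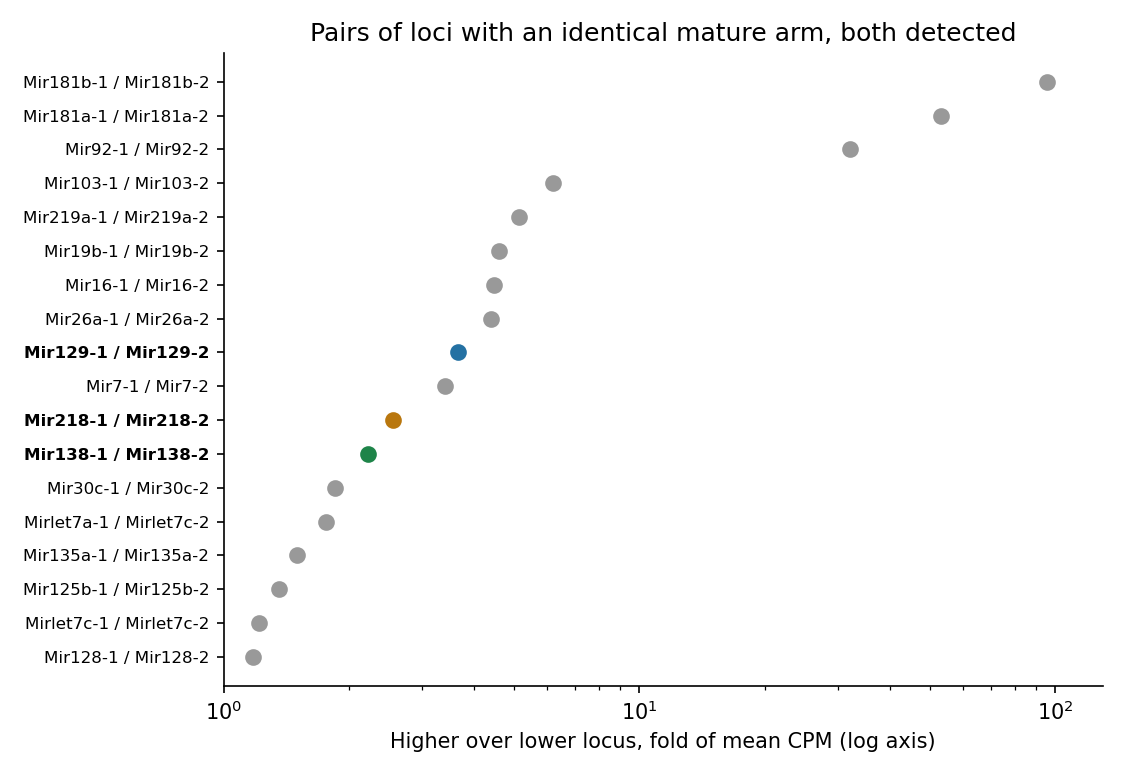
Fold between the mean CPM of the higher and the lower locus (log axis) for the 18 pairs of loci that encode an identical mature arm and were both detected, in order of the fold. The pairs Mir129-1 and Mir129-2 (3.67), Mir218-1 and Mir218-2 (2.55) and Mir138-1 and Mir138-2 (2.22) are coloured and in bold. They lie near the middle of the order, and the folds range from 1.17 to 95.8.

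Mir132 and Mir212 were also compared with other neighbours. There were 65 pairs of adjacent detected miRNA genes on the same strand within 1 kb, which differed by a median of 8.83-fold. The 21.1-fold difference between Mir132 and Mir212 was exceeded in 22 of the 65. RefSeq lists mature arms for both genes of 62 pairs. Among the 47 of these in which neither gene has a listed arm shared with another locus, as is the case for Mir132 and Mir212, the median was 7.78-fold and 13 pairs exceeded the difference between Mir132 and Mir212. A difference of this size between neighbours was therefore common in these libraries.

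Between the libraries, 2 of the 8 genes differed by more than counting error, Mir132 and Mir138-1, in opposite directions. The test was Fisher's exact test, two-sided, of each gene against the remaining miRNA counts, Benjamini-Hochberg adjusted over the 737 genes with a count, and it compares these libraries only. It called 26.3% of the genes tested and 46.9% of the 399 detected ones, so calls for 2 of 8 are not more than the background. Higher in replicate 2 were 9.36% of the genes tested and 1 of the 8, higher in replicate 1 were 17.0% and 1 of the 8. The split of all calls was 69 higher in replicate 2 and 125 higher in replicate 1, and moved to 85 and 96 with TMM scaling, to 83 and 97 with totals that leave out Mir99a, the gene with the most counts, and to 99 and 88 with median-of-ratios scaling. A difference of 2-fold or more was called for 1.49% of the genes and for none of the 8.

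Mir132 was 1.43-fold higher in replicate 2 (log2 ratio 0.51, exact 95% counting interval 0.44 to 0.58; Fisher's exact test, adjusted p = 5.82e-43). Of the 399 detected genes, 60 had a larger absolute log2 ratio than Mir132, and among the 64 detected genes within 2-fold of its level 6 did. Mir138-1 was lower in replicate 2, at 0.869-fold the level in replicate 1 (log2 ratio -0.20, -0.26 to -0.14; Fisher's exact test, adjusted p = 1.11e-09). That ratio was ordinary for these libraries, with 223 of the 399 detected genes showing a larger absolute one. Mir212 had a ratio of 1.10 (log2 ratio 0.13, -0.20 to 0.47), which did not pass (Fisher's exact test, adjusted p = 0.740), and its interval includes 0 and overlaps that of Mir132. The ratios of the other 5, replicate 2 over 1, lay between 0.833 (Mir218-2) and 1.02 (Mir129-1), and none passed. The median log2 ratio was -0.04 for the 8 genes and -0.09 for all detected genes, and the median absolute log2 ratio 0.14 and 0.23.

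**Figure D5:**
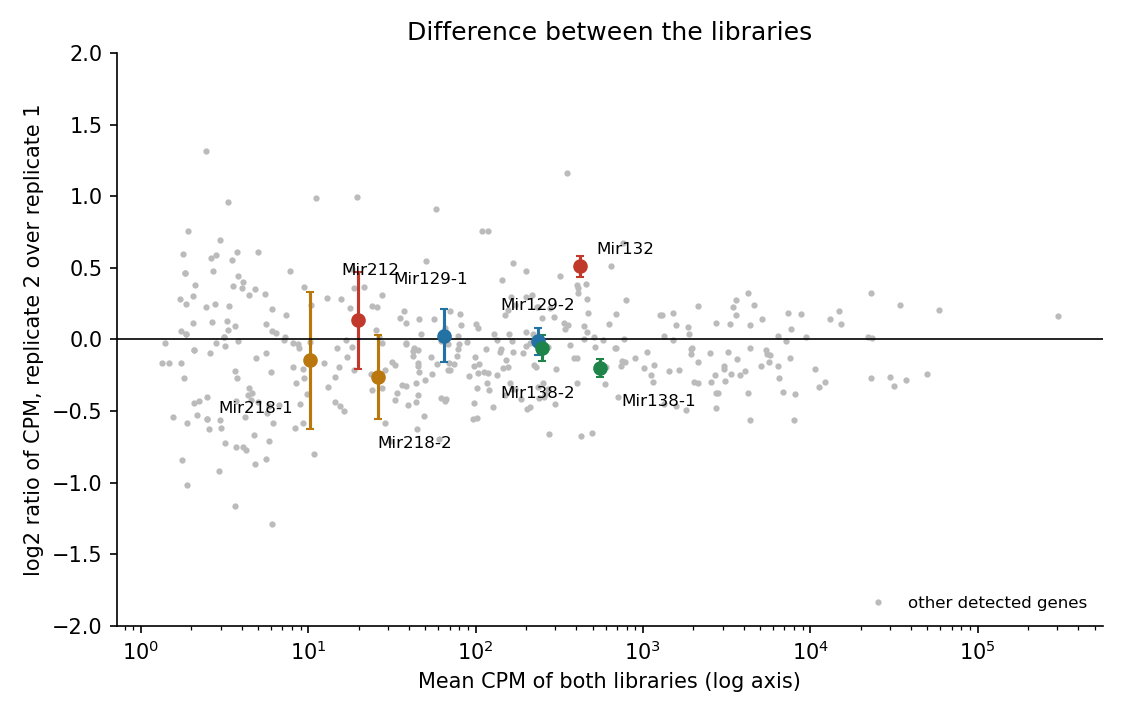
The log2 ratio of CPM, replicate 2 over replicate 1, against the mean CPM of both libraries (log axis) for the detected genes, with the 8 genes in colour and their exact 95% counting intervals as bars; 1 other gene lies outside the plotted range. Mir132 stands at 0.51 and Mir138-1 at -0.20, and the intervals of the other 6 include 0.

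Calls in the marker lists are read against the 46.9% of all detected genes that were called, a share that is not matched for level. Both erythroid markers were called higher in replicate 2 in the same test, with summed levels of 537 and 400 CPM in replicates 2 and 1. The 3 Hox-cluster markers of posterior tissue summed to 654 and 513 CPM, with 2 called higher in replicate 2 and all 3 under those other scalings. The 3 choroid plexus or ciliated markers were all called higher in replicate 1 with library totals, but 2 of 3 with TMM, median-of-ratios or totals without Mir99a. Of the 9 neural markers 5 were called, all higher in replicate 1, and 4 with median-of-ratios. The stromal markers summed to 4036 and 3616 CPM in replicates 2 and 1, with 1 of 3 called higher in replicate 2, the immune markers to 191 and 186 CPM with none of 3 called, and the striated muscle markers to 14.0 and 19.9 CPM with 1 of 2 called higher in replicate 1. With TMM, median-of-ratios or totals without Mir99a, 1 immune marker was called higher in replicate 2 and no striated muscle marker was called. Endothelial Mir126a was called higher in replicate 2 under every scaling, at 1.01-fold with library totals. None of the markers of these lists was at 0, and their part in the differences of Mir132 and Mir138-1 was not tested.

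Other miRNAs known from neurons or neural progenitors were counted by the same rule. Of the 14 of them with a RefSeq mature sequence, 8 have an arm that another locus also encodes, so their gene counts, like those of Mir138-1, leave out shared reads. Of a list of 18, 17 were in the table (Mir9-1 is not analysed here) and 16 were detected, with a median of 629 CPM, and 10 stood above Mir138-1. The highest, in replicates 2 and 1, were Mir137 at 7274 and 7955 CPM, Mir135b at 6037 and 7782 CPM and Mir92b at 2786 and 3407 CPM. In the test between libraries, 12 of the 17 were called, beside 26.3% of the genes tested and 46.9% of those detected. These shares are not matched for level. The test calls more readily at higher counts, and the median of the detected genes was 81.0 CPM against 629 CPM for the list. Of the 12, 3 were higher in replicate 2 and 9 higher in replicate 1, and with median-of-ratios scaling 3 and 6. The 3 higher in replicate 2, named after their values were seen, were Mir128-1 at 1.60-fold, Mir128-2 at 1.43-fold and Mir134 at 1.07-fold. With library totals, the 9 higher in replicate 1 ran from 0.764-fold (Mir135a-1) to 0.914-fold (Mir137), replicate 2 over replicate 1. A link between these genes and Mir132 was not tested.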

How the data were processed

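Small RNA of 2 forebrain libraries was quantified by the authors as whole-number counts of reads per miRNA gene, which are the deposited values; per the README deposited with each sample they derive from 1 alignment file per library on mm10 with GENCODE M4. Neither aligner nor counter is given in the sources used here. Multi-mapping reads (42.2% in replicate 2 and 43.3% in replicate 1), unmapped reads (17.0% and 16.5%) and reads outside miRNA genes (2.35% and 2.08%) are totals that name no gene and stayed out of library sizes and tests. Own-strand counts were scaled to CPM over all miRNA genes. Names, positions and hosts came from GENCODE M21 by gene ID without version (1894 of 1973 matched) and sequences from RefSeq (GRCm38.p6), with all 8 genes matched. Fisher's exact test and exact intervals used scipy 1.17.1 with a threshold of 0.05 across all genes, and the script was tested on simulated data. Reads carry no molecular identifiers, so intervals and floors (3 counts, 0.378 CPM in replicate 2 and 0.424 in replicate 1) cover counting error only. With 1 group, no test between conditions was possible. The members and lists were chosen with earlier results of these data known, and the comparisons with other pairs of loci and other neighbours after the values were seen. The text names the 8 genes, the gene nearest in level to the highest member of each family, the 3 highest of the neuron list and any miRNA gene that overlaps a member. Any other gene named was outside this rule and chosen after its values were seen. Alternatives covered strand, scaling (edgeR 4.0.16 TMM, DESeq2 1.42.0 size factors), count minimum, pseudocount and leaving out a library.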

Additional observations from a re-analysis of the deposited data

How the results depend on the processing

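All 8 genes were detected with a minimum of 1 count, with counts on either strand and in each library alone, and 7 with a minimum of 100. The order of levels was the same under every scaling, in each library alone and with a pseudocount of 0.5, which also kept all 4 nearest genes. Totals that leave out Mir99a raised the sum of the 8 genes to 2273 CPM, against 1587 CPM, and the family shares to 0.0635% for miR-132 with miR-212, 0.0432% for miR-129, 0.115% for miR-138 and 0.00518% for miR-218, since the total is smaller. Counts on either strand gave 0.0298% for miR-129, against 0.0302%, since the total is larger. With a single library the sum was 1560 to 1614 CPM. Mir132 and Mir138-1 kept their calls and directions under every scaling and filter, with log2 ratios of 0.51 to 0.62 for Mir132 and of -0.20 to -0.092 for Mir138-1 (Fisher's exact test, highest adjusted p = 0.0161). TMM, median-of-ratios and totals without Mir99a moved all log2 ratios up by 0.080, 0.110 and 0.070, which turned the sign of Mir129-2 (0.066, 0.096 and 0.056) and of Mir138-2 (0.018, 0.049 and 0.0083), neither of them called. The number of genes called was 180 to 213 under the planned settings, against 194, and 178 when adjusted over all 1973 genes, a setting chosen after seeing the data. The test between libraries gives no value without a replicate. No paired analysis was possible because there is 1 group. Mir218-1, with 77 and 76 counts in replicates 2 and 1, is the gene most limited by depth.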

Other observations

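The seeds of the arms set miR-132-3p and miR-212-3p apart as a pair, and few other miRNAs share a seed with the remaining arms. The seed of miR-218-5p is also that of miR-7002-3p, whose gene Mir7002 had 0 counts in replicate 2 and 1 in replicate 1. The seed of miR-218-1-3p is also that of miR-496b, whose gene Mir496b had no count in either library. For the seeds of miR-129-5p and miR-138-5p RefSeq lists no other mature miRNA of the mouse. Mir670 shares the host gene Mir670hg with Mir129-2 and was named after its values were seen. At 106 CPM for replicate 2 and 135 CPM for replicate 1, it was called lower in replicate 2 (adjusted p = 1.26e-06, Fisher's exact test), whereas Mir129-2 stood at 236 and 238 CPM and was not called; the difference between these ratios was not tested.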
